A study of Mus musculus with 10 samples.

Results

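Aminoacyl-tRNA synthetases were measured by RNA sequencing in whole hearts of trained and sedentary mice. The 35 genes were chosen by name, as a list of synthetase genes matched to the GENCODE annotation of the mouse genome. They are 35 of 56748 genes in the count tables. By the compartment in which their product works, 18 are cytosolic and 15 are mitochondrial, while Gars1 and Kars1 each encode both forms. The hearts came from wild-type C57BL/6 mice that were 8 weeks old at purchase. In the training group, 5 mice ran on a treadmill at 15 m/min for 120 minutes a day on 5 days a week for 8 weeks, after a rest of at least 2 weeks and a stepwise acclimatization. The sedentary group held 5 mice of the same age. Each library was made from 1 heart with both atria and ventricles, so that the RNA is a mixture of cardiomyocytes and all other cell types of the organ.

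Each aminoacyl-tRNA synthetase joins an amino acid to the tRNAs that carry its anticodon, and thereby links codons to amino acids. The cytosolic enzymes charge tRNAs for nuclear mRNAs. The mitochondrial enzymes are encoded in the nucleus, are imported, and charge the tRNAs of mitochondrial DNA for the few respiratory chain subunits made there. Several cytosolic enzymes sit in a multisynthetase complex. Genes of cytosolic synthetases are known targets of ATF4, the transcription factor of the amino acid and integrated stress response, and defects of mitochondrial synthetases such as Aars2 are known causes of cardiomyopathy.

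Between 29461697 and 35945417 reads were counted on genes in the training hearts and between 35196993 and 39431030 in the sedentary hearts, and the training libraries were shallower (exact two-sided permutation test over 252 assignments, p = 0.0238). The synthetase genes together held between 0.1505% and 0.170% of these counts. The lowest count of any of them in a heart was 257 (Wars2), so that all 35 passed the filter on low counts and were tested. Cardiomyocyte markers such as Myh6 and Tnnt2 were abundant in every heart, with a summed level of 8 markers between 61385 and 65176 CPM in the training and between 64516 and 74086 CPM in the sedentary hearts. CPM are read counts scaled to library size with TMM factors. All 8 cardiomyocyte markers had a log2 change below 0, and Actc1 was called lower (12.5%, against 4.26% of all genes). The 8 atrial markers summed to between 5368 and 7985 CPM in the training and between 2983 and 7125 CPM in the sedentary hearts. All 8 had a log2 change above 0, between 0.36 and 0.83, and 4 were called higher (50%, against 2.75% of all genes). All 6 fibroblast markers also had a log2 change above 0, and Pdgfra and Lum were called higher (33.3%, against 2.75% of all genes). The 6 summed to between 1104 and 1364 CPM in the training and between 958 and 1173 CPM in the sedentary group. All 5 endothelial markers had a log2 change below 0, with Tie1 called lower (20%, against 4.26% of all genes). Their sums did not overlap between the groups, and neither did the values of 5.06% of all single genes. These sums lay between 713 and 768 CPM in the training and between 792 and 836 CPM in the sedentary hearts. Of 4 mural markers, 3 had a log2 change below 0, with Rgs5 called lower (25%, against 4.26% of all genes). The other 1 was above 0, at 0.35. Mural sums overlapped, with between 739 and 845 CPM in the training and between 803 and 911 CPM in the sedentary hearts. Adipocyte markers summed to between 8.85 and 70.3 CPM in the training and between 6.68 and 47.2 CPM in the sedentary hearts. In bulk tissue, fewer cells of a type and less RNA per cell cannot be told apart.

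The first comparison was training against sedentary hearts for each synthetase gene. Training hearts had a lower level of Sars2, which encodes the mitochondrial seryl-tRNA synthetase, and no other synthetase passed the threshold in either direction. Calls come from edgeR's quasi-likelihood test over all 15454 genes that passed the filter, at a Benjamini-Hochberg adjusted p (FDR) below 0.1. By this rule 1 of the 35 synthetase genes (2.86%) was called, against 7.01% of all genes tested. For single directions, 0 of the 35 were called higher against 2.75% of all genes, and 1 was called lower against 4.26%. The balance over all genes turned with the scaling, from 425 higher and 659 lower with TMM to 1029 higher and 339 lower with library totals alone, where no synthetase was called. At an unadjusted p below 0.05 there were 5 synthetase genes, all mitochondrial, against 20% of all genes. The values of the groups did not overlap for 2 synthetase genes, Sars2 and Iars2, against 5.06% of all genes.

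With TMM scaling, though not with library totals alone, most synthetase genes had slightly lower values after training. The log2 fold change of training over sedentary hearts, given below as the log2 change with its standard error (SE), was below 0 for 25 genes and above 0 for 10, with a median of -0.038 against 0.00026 over all genes tested. The sign of the log2 changes depended on the scaling. With library totals in place of TMM, 12 genes were below 0 and 23 above. The median was then 0.020 for the cytosolic and 0.0022 for the mitochondrial genes, both below the 0.053 of all genes. The median size of the change, whatever its sign, was 0.049 for the synthetases and 0.092 for all genes, and the median SE was 0.048 and 0.078. For 31 of the 35 genes the 95% interval of the log2 change lay within 0.25 of 0, which corresponds to a rise of at most 18.9% or a fall of at most 15.9%. These 31 included all 18 cytosolic genes.

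**Figure D1:**
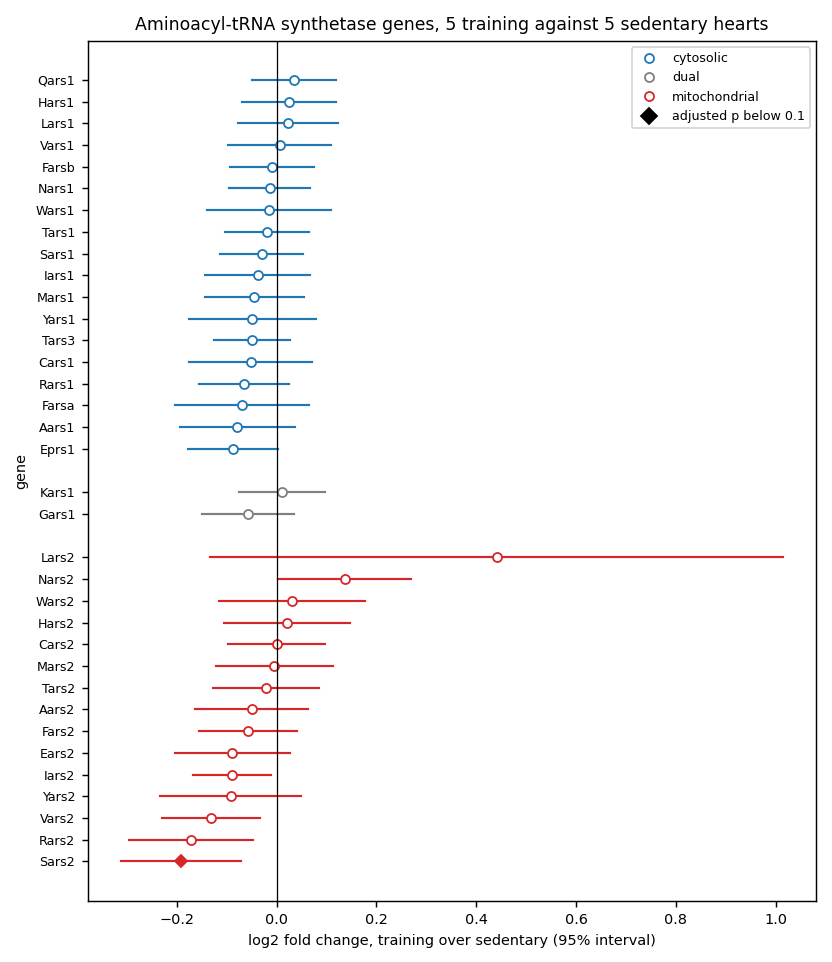
Log2 fold change of training over sedentary hearts with its 95% interval for the 35 synthetase genes, grouped as cytosolic (blue), dual (gray) and mitochondrial (red). The filled diamond marks Sars2, the only gene with an adjusted p below 0.1, and the widest interval is that of Lars2.

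Among the cytosolic enzymes, none of 18 genes was called by edgeR, against 7.01% of all genes, or by DESeq2, against 4.69%. Also, 0 of the 18 had an unadjusted p below 0.05 in edgeR's test, against 20% of all genes. Their log2 changes lay between -0.087 and 0.036, with a median of -0.034, and 14 of them were below 0. The lowest was that of Eprs1 (ENSMUSG00000026615, chromosome 1 of GRCm39, 185095101 to 185161840, plus strand), which encodes the bifunctional enzyme that charges tRNAs with glutamate and proline. Eprs1 was at 118, 129, 120, 131 and 131 CPM in training hearts 1 to 5 and at 138, 135, 134, 130 and 129 CPM in sedentary hearts 1 to 5. Training hearts 1 and 3 were the lowest of all, training heart 2 was just under the lowest sedentary heart, and training hearts 4 and 5 lay within the sedentary range. Its log2 change was -0.087 (SE 0.041, adjusted p = 0.259 in edgeR's test), with a 95% interval from an 11.5% fall to a 0.137% rise.

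The highest cytosolic value was that of Qars1 (ENSMUSG00000032604, chromosome 9, 108384905 to 108393140, plus strand), the glutaminyl-tRNA synthetase. Qars1 stood at 61.7, 56.6, 56.7, 61.0 and 61.0 CPM in the training hearts, and sedentary hearts were at 56.9, 59.2, 57.1, 57.3 and 59.3 CPM. Training hearts 1, 4 and 5 were above every sedentary heart, and training hearts 2 and 3 were below every one. The log2 change of 0.036 (SE 0.039, adjusted p = 0.669 in edgeR's test) was within the spread between hearts. The alanyl-tRNA synthetase gene Aars1 had a log2 change of -0.079, Farsa, the alpha subunit of the phenylalanine enzyme, -0.069, and Rars1, the arginine enzyme, -0.065. Those of the leucine enzyme Lars1 and the histidine enzyme Hars1 were 0.024 and 0.025. Tars3, a second threonine enzyme, had the steadiest level of all 35 genes among sedentary hearts, with a coefficient of variation of 1.504% (SD over mean, n = 5), and a log2 change of -0.050.

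Gars1 and Kars1, which charge tRNAs with glycine and lysine in both compartments, were not called. Gars1 (ENSMUSG00000029777, chromosome 6, 55014927 to 55061231, plus strand) was at 63.6, 72.2, 68.9, 65.7 and 67.2 CPM in the training hearts, and sedentary hearts were at 70.0, 72.6, 72.9, 67.5 and 68.5 CPM. The groups overlapped, with training hearts 1, 4 and 5 below every sedentary heart. The log2 change was -0.058 (SE 0.043, adjusted p = 0.494 in edgeR's test). Kars1 (ENSMUSG00000031948, chromosome 8, 112719747 to 112738004, minus strand) was at 97.4, 95.9, 92.8, 101 and 95.8 CPM in trained hearts, against 89.7, 95.02, 96.2, 100 and 98.6 CPM in sedentary ones. Both groups covered nearly the same range, and the log2 change was 0.010 (SE 0.040, adjusted p = 0.917 in edgeR's test).

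Among the mitochondrial enzymes, 1 of 15 genes was called (6.67%, against 7.01% of all genes), with 10 below 0 and a median log2 change of -0.050, or -0.053 without Lars2. Sars2 (ENSMUSG00000070699, chromosome 7, 28441392 to 28454494, plus strand) was at 10.2, 10.9, 10.1, 10.4 and 10.6 CPM in the training hearts. In the sedentary hearts it was at 11.1, 11.7, 12.0, 12.1 and 12.9 CPM. Every training heart was below every sedentary heart, though training heart 2 and sedentary heart 1 nearly met. The mean was 10.5 ± 0.30 CPM (SD, n = 5) in the training group and 12.0 ± 0.68 CPM (SD, n = 5) in the sedentary group, a log2 change of -0.19 (SE 0.056, adjusted p = 0.0771 in edgeR's test). As a percentage this is -12.4%, with a 95% interval from -19.4% to -4.86%.

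The call of Sars2 was near the threshold. DESeq2 gave an adjusted p of 0.0775, and the gene was called in 6 of 10 other settings and in 2 of 10 fits on 9 hearts, those without training heart 2 and without sedentary heart 1. With the mean level of the atrial markers as a covariate, the log2 change of Sars2 was -0.12 (adjusted p = 0.581 in edgeR's test), and 62 genes in all were called in that fit. The part of atrial tissue in the result was not tested beyond that fit. Sars2 overlaps Mrps12, a gene of the mitochondrial ribosome on the opposite strand, and the counts used here are strand-specific. Mrps12 had a log2 change of -0.12 (SE 0.047, adjusted p = 0.178 in edgeR's test).

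The other mitochondrial genes with an unadjusted p below 0.05 were Rars2, Vars2 and Iars2, with log2 changes below 0, and Nars2, with one above 0, and none of them passed the adjustment. Rars2, the arginine enzyme, was at 17.0, 15.2, 14.7, 15.5 and 14.5 CPM in trained hearts, against 16.1, 18.1, 18.2, 16.7 and 17.6 CPM in sedentary ones. All training hearts but heart 1 were below the sedentary range. Its log2 change was -0.17 (SE 0.058, adjusted p = 0.121 in edgeR's test), and Rars2 was called without training heart 1 (adjusted p = 0.0596 in edgeR's test) and without sedentary heart 1 (adjusted p = 0.0726 in edgeR's test). Vars2, the valine enzyme, lay between 27.7 and 29.8 CPM in the training hearts and between 29.2 and 32.9 CPM in the sedentary hearts. Only training heart 5 reached into the sedentary range, and the log2 change was -0.13 (SE 0.046, adjusted p = 0.132 in edgeR's test).

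Iars2, the isoleucine enzyme, was at 126, 118, 121, 127 and 125 CPM in the training hearts, and sedentary hearts were at 129, 137, 129, 129 and 130 CPM. The groups did not overlap, with 4 sedentary hearts close together just above the training range and sedentary heart 2 well above them. The change was smaller than that of Sars2, at -0.089 (SE 0.037, adjusted p = 0.196 in edgeR's test). Nars2, the asparagine enzyme, was at 13.4, 13.3, 12.3, 12.3 and 13.5 CPM in the training hearts, and sedentary hearts were at 12.8, 12.7, 11.0, 11.2 and 11.2 CPM. Training hearts 1, 2 and 5 were above every sedentary heart, and the log2 change was 0.14 (SE 0.062, adjusted p = 0.241 in edgeR's test). When a trend of each library on gene length was removed, Sars2, Vars2 and Iars2 were all called lower.

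**Figure D2:**
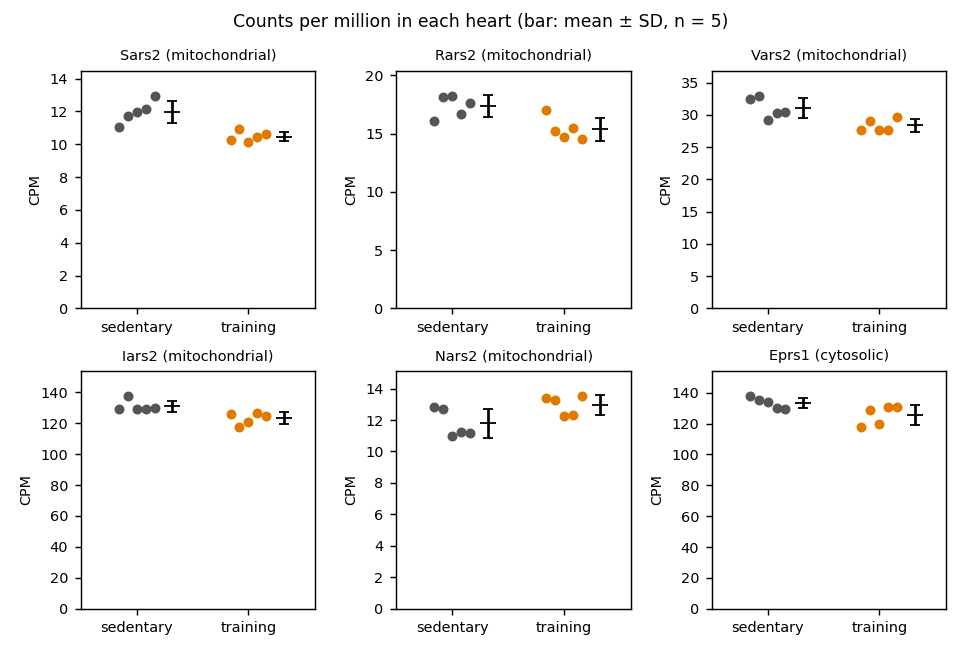
CPM in each of 5 sedentary (gray) and 5 training (orange) hearts for the 5 mitochondrial genes with an unadjusted p below 0.05 and for Eprs1, with the mean ± SD beside the points. The groups are apart for Sars2 and Iars2 and overlap for the other 4 genes.

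The remaining mitochondrial genes, other than Lars2, had log2 changes between -0.092 (Yars2, the tyrosine enzyme) and 0.032 (Wars2, the tryptophan enzyme). Aars2 was at 28.1 ± 1.8 CPM (SD, n = 5) in trained hearts, against 29.1 ± 1.4 CPM (SD, n = 5) in sedentary ones, a log2 change of -0.050. Cars2, the cysteine enzyme, and Mars2, the methionine enzyme, had the values nearest to 0, at 0.00075 and -0.0044. Cars2 was at 38.5 ± 0.50 CPM in trained hearts, against 38.4 ± 2.4 CPM in sedentary ones (SD, n = 5 each).

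The largest log2 change of any synthetase, that of the mitochondrial leucine enzyme Lars2, rested on 1 heart. Lars2 (ENSMUSG00000035202, chromosome 9, 123195952 to 123291731, plus strand) was at 207 CPM in training heart 1 and at 73.7, 72.5, 71.9 and 69.9 CPM in training hearts 2 to 5. The sedentary hearts were at 84.6, 80.5, 73.3, 61.6 and 64.7 CPM, so that the other training hearts lay inside the sedentary range. The log2 change was 0.44 (SE 0.27, adjusted p = 0.390 in edgeR's test) with all hearts and -0.020 without training heart 1 (adjusted p = 0.923 in edgeR's test).

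In training heart 1, Lars2 was the only protein-coding gene among 7 genes that exceeded every other heart more than 2-fold, out of 13117 genes whose mean reached 1 CPM. The other 6 were noncoding, among them the 18S ribosomal RNA gene Rn18s-rs5, the lncRNA Gm15564 and the miRNA gene Mir6236. Rn18s-rs5 was at 6599 CPM in training heart 1 and between 850 and 1356 CPM in the other 9 hearts. Gm15564 was at 15.5 CPM against between 1.56 and 4.17, and Mir6236 at 115 CPM against between 29.5 and 46.2. Of the mitochondrial ribosomal RNAs, mt-Rnr2 was within the range of the other hearts, at 9004 CPM against between 7357 and 9565, and mt-Rnr1 was slightly above it, at 3753 CPM against between 2753 and 3541.

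The Lars2 transcript shares sequence with one of these genes. In the last exon of Lars2, exon 21 of 21, a stretch of 75 bases of the 3' UTR (chr9:123291110-123291184 of GRCm39) matched Gm15564 at 98.7% identity. The canonical transcripts of all 35 synthetases were compared with 375 transcripts of ribosomal RNA genes, Gm15564 and Mir6236. The only other match was between the last exon of Cars2 and Gm15564, at 70.1% over 231 bases, and Cars2 was at 38.5 CPM in training heart 1 as in the other training hearts. RSEM, which also divides reads of several matches among genes, gave Lars2 10402 expected counts in training heart 1 and between 2473 and 4276 in the other hearts, against 7311 and between 2108 and 3405 uniquely mapped reads. The part of this stretch in the Lars2 value of training heart 1 was not tested, as the tables hold 1 value per gene.

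**Figure D3:**
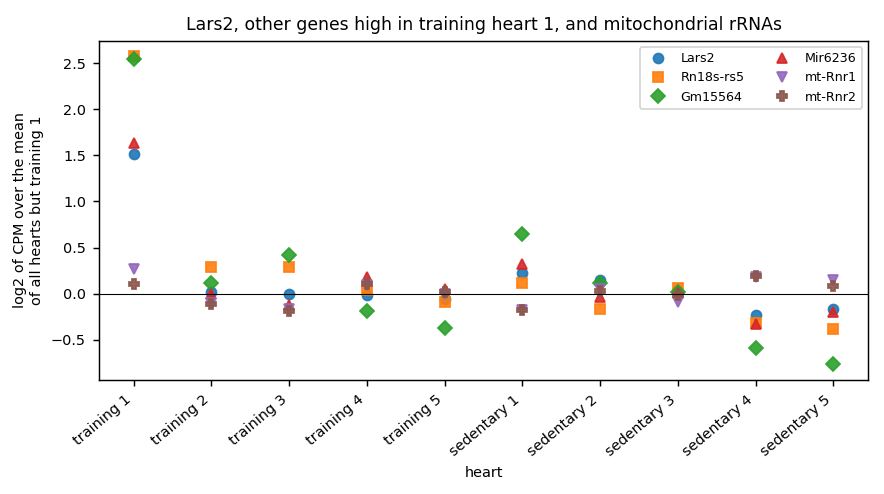
Log2 of the CPM in each heart over the mean of the 9 hearts other than training 1, for Lars2, the noncoding genes Rn18s-rs5, Gm15564 and Mir6236, and the mitochondrial ribosomal RNAs mt-Rnr1 and mt-Rnr2. In training heart 1 the first 4 genes stand more than 2-fold above every other heart, mt-Rnr1 stands slightly above, and mt-Rnr2 lies within the range of the others.

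Levels of different synthetases were compared per length, as TPM from RSEM, which divides reads by transcript length, over all 10 hearts. RSEM's values followed the strand of the genes: for 32 genes whose reads lay almost all on the opposite strand, it gave 2.92% of the reads counted without regard to strand. Mars1 and Sars2, which overlap genes on the other strand, had 0.959 and 0.922 times their reverse-strand counts in RSEM. The value of Sars2 was the lowest of the 35 members, with Rars2 next at 0.932, and the highest was 1.25 for Lars2. Kars1 and Qars1 were the highest, at 50.9 ± 2.5 and 50.2 ± 2.9 TPM (SD, n = 10), and did not differ beyond their spread. Nars1 followed at 39.0 ± 2.6, then Sars1 at 33.7 ± 2.1 and Fars2 at 31.6 ± 2.3 TPM, and the last 2 lay within their spread of each other. The lowest were Mars2 at 1.61 ± 0.12 TPM, Wars2 at 2.53 ± 0.44, Ears2, the glutamate enzyme, at 5.16 ± 0.26, Sars2 at 6.21 ± 0.41 and Nars2 at 7.05 ± 1.0 TPM. Sars2 and Nars2 are neighbors within their spread. All 5 of the lowest genes are mitochondrial, and of the 10 highest 5 were cytosolic, 3 mitochondrial and 2 dual. The median was 20.2 TPM for the cytosolic and 11.8 TPM for the mitochondrial genes.

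**Figure D4:**
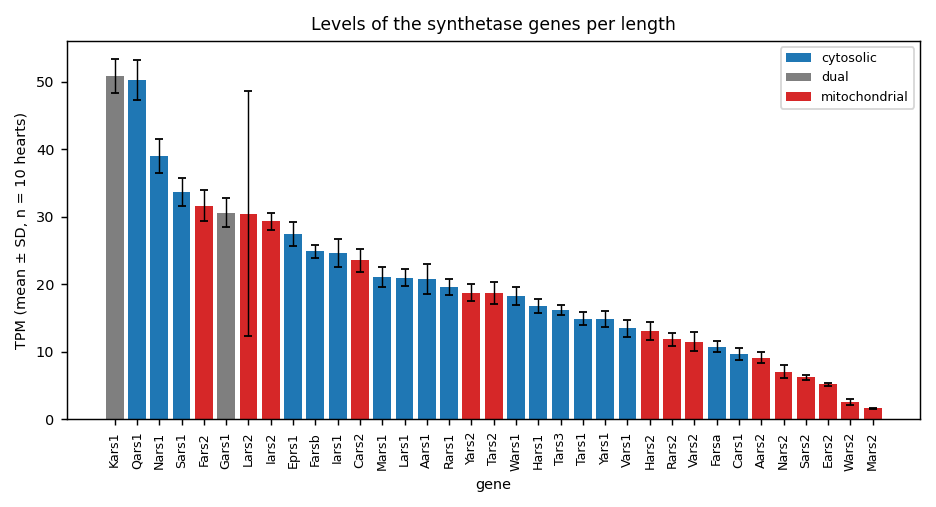
TPM of the 35 synthetase genes from highest to lowest, as the mean over 10 hearts with the SD as the error bar, colored by compartment. Kars1 and Qars1 are highest and Mars2 lowest, and the wide error bar of Lars2 comes from training heart 1.

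For 14 amino acids the heart expresses a cytosolic enzyme and a separate mitochondrial one, each a single chain from its own gene (Tars1 was taken for threonine and Eprs1 for glutamate). In 8 of these pairs the cytosolic gene was higher in TPM in every heart. The ratio was largest for methionine, with Mars1 at 13.1 ± 1.2 times Mars2, followed by tryptophan at 7.34 ± 1.1, asparagine at 5.61 ± 0.71, serine at 5.44 ± 0.42 and glutamate at 5.32 ± 0.45 (SD, n = 10). In 5 pairs, those for cysteine, isoleucine, leucine, threonine and tyrosine, the mitochondrial gene was higher on average, most so for cysteine, with Cars1 at 0.411 ± 0.035 times Cars2. For leucine the ratio lay between 0.25 and 1.09 over the hearts, so that its order was not the same in every heart. Lars2 was at 81.3 TPM in training heart 1 and between 18.5 and 30.8 TPM in the others. Fars2, the single-chain mitochondrial phenylalanine enzyme, was also above both subunits of the cytosolic enzyme, with Farsa at 0.341 ± 0.033 and Farsb at 0.791 ± 0.081 times its level.

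The ratios of trained and sedentary hearts lay close together. For the ratio of cytosolic to mitochondrial enzyme within each heart, in CPM, the groups overlapped in all 14 pairs. The ratio of Sars1 to Sars2 moved most among the pairs without Lars2, with a mean log2 difference of 0.16 between training and sedentary hearts and a pooled within-group SD of 0.076. That of Vars1 to Vars2 differed by 0.14 (SD 0.083) and that of Nars1 to Nars2 by -0.15 (SD 0.088), and neither was tested apart from the genes themselves. Summed over all members, cytosolic enzymes were at 402 ± 17 TPM in the training and 392 ± 17 TPM in the sedentary hearts (SD, n = 5 each). On the TMM-scaled CPM scale the same sums were 921 ± 25 and 942 ± 20, so that the direction differed between the scales. The mitochondrial enzymes summed to 227 ± 20 and 214 ± 14 TPM with Lars2, and to 190 ± 9.8 and 190 ± 9.5 TPM without it. Summed cytosolic TPM was 1.44 times summed mitochondrial TPM in training heart 1 and between 1.75 and 1.95 times in the other 9 hearts.

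Some hearts were high or low for most synthetase genes. In sedentary heart 2, all 18 cytosolic genes and 14 of the 15 mitochondrial genes were above their own mean over the 10 hearts. In training heart 3, only 2 of the 18 cytosolic and none of the 15 mitochondrial genes were. Training heart 2 had the highest value of its group for 11 of the 18 cytosolic genes, although training hearts as a group were lower. Mean log2 CPM of the cytosolic genes, centered gene by gene, lay between -0.047 and 0.040 in the training and between -0.024 and 0.056 in the sedentary hearts.

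The second comparison set the synthetases beside other genes of tRNA charging and translation. None of the 7 synthetase genes of the multisynthetase complex was called, and none of its 3 scaffold genes, against 7.01% of all genes. Aimp2 and Eef1e1 of the scaffold had log2 changes of -0.12 and -0.11, and Aimp1 0.055, with adjusted p-values between 0.320 and 0.604 in edgeR's test. Of 13 genes that help or proofread charging, 1 was called (7.69%, against 7.01% of all genes), Qrsl1, a subunit of the amidotransferase that makes glutaminyl-tRNA in mitochondria. Qrsl1 fell from 30.3 ± 2.0 to 26.0 ± 2.1 CPM (SD, n = 5 each), a log2 change of -0.22 (SE 0.061, adjusted p = 0.0649 in edgeR's test). None of 8 cytosolic elongation factor genes was called, against 7.01% of all genes, and their median was 0.0022.

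Of 11 mitochondrial translation factor genes, 3 were called lower and none higher, where 4.26% of all genes were called lower and 2.75% higher. Mtif2, an initiation factor, had a log2 change of -0.20 (adjusted p = 0.0498 in edgeR's test), Guf1, a ribosome-bound GTPase, -0.19 (adjusted p = 0.0604), and Gfm1, an elongation factor, -0.13 (adjusted p = 0.0935). The median of the list was -0.070. Among 13 genes that process or modify mitochondrial tRNAs, 1 was called (7.69%, against 7.01% of all genes). Trmt10c, a subunit of the mitochondrial RNase P, fell from 19.4 ± 0.80 to 16.4 ± 1.2 CPM (SD, n = 5 each) without overlap, a log2 change of -0.24 (adjusted p = 0.0427 in edgeR's test), and the median was -0.044. Of 77 genes with a mitochondrial ribosomal protein symbol (Mrpl or Mrps), 17 were called lower and 1 higher. Their log2 change was below 0 for 70 and above 0 for 7, with a median of -0.11. The called genes were 23.4% of the list, against 7.01% of all genes. This list was taken by symbol alone, and a place in the ribosome was not checked for each gene. Of 76 cytosolic ribosomal protein genes, 1 was called lower and 3 higher (5.26%). Here 37 were below 0 and 39 above, with a median of 0.0014. The mitochondrial synthetases had 1 of 15 genes called lower and 10 below 0. Their median of -0.050 lay between these 2 lists, and a difference between the lists was not tested. Out of 10 fits on 9 hearts each, Trmt10c was called in 8, Mtif2 in 6, Guf1 and Qrsl1 in 5, and Gfm1 in 2. With the atrial covariate, adjusted p-values of these 5 genes were all at least 0.365 in edgeR's test. Their log2 changes in that fit were -0.17 for Mtif2, -0.16 for Guf1, -0.21 for Trmt10c, -0.16 for Qrsl1 and -0.065 for Gfm1.

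**Figure D5:**
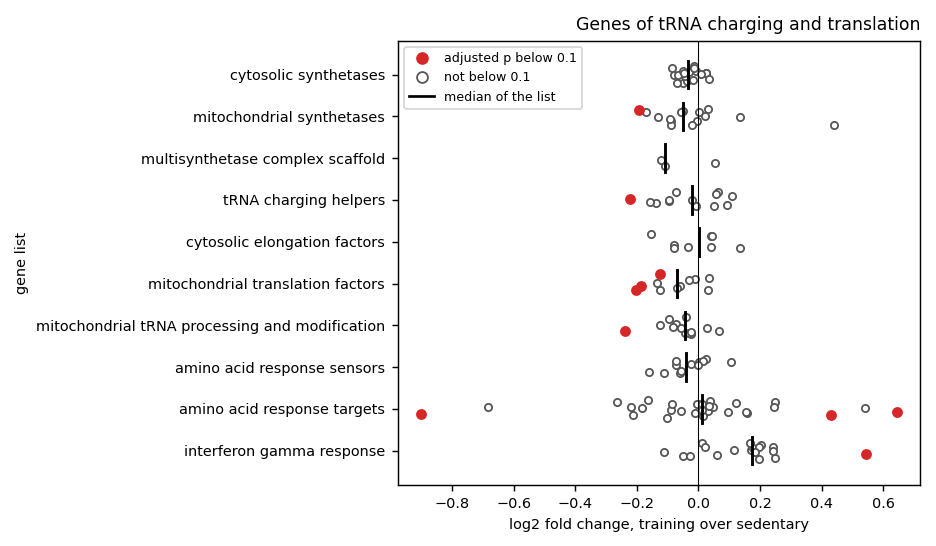
Log2 fold change of training over sedentary hearts for each tested gene of the cytosolic and mitochondrial synthetases and of 8 related gene lists. Called genes are in red, and a bar marks the median of each list. The dual genes Gars1 and Kars1 are not shown. Called genes of mitochondrial lists lie below 0, and the amino acid response targets spread on both sides.

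The third comparison concerned the amino acid response, which is known to raise transcription of cytosolic synthetase genes through ATF4. Of 31 tested targets of that response, 2 were called higher and 1 lower, 9.68% of the list against 7.01% of all genes. The median log2 change was 0.013. Cth, an enzyme of cysteine synthesis, was at 2.66 ± 0.50 CPM in trained hearts, against 1.70 ± 0.50 CPM in sedentary ones, a log2 change of 0.64 (SE 0.19, adjusted p = 0.0816 in edgeR's test). Aldh1l2, a mitochondrial folate enzyme, rose from 15.2 ± 1.5 to 20.5 ± 3.1 CPM (SD, n = 5 each), a log2 change of 0.43 (SE 0.099, adjusted p = 0.0344 in edgeR's test). Ddit4, an inhibitor of mTORC1 signaling that also responds to glucocorticoids, fell by 0.90 on the log2 scale (SE 0.28, adjusted p = 0.0932 in edgeR's test). In sedentary heart 1 Ddit4 was at 31.6 CPM, within the training range of 26.5 to 56.5, while the other sedentary hearts were between 74.1 and 109 CPM. Aldh1l2 was called in each of 10 fits on 9 hearts, Cth in 3 and Ddit4 in 2. With RSEM counts, Cth and Ddit4 were not called (adjusted p = 0.134 and 0.111 in edgeR's test), and DESeq2 gave Ddit4 an adjusted p of 0.108. None of the 3 was called with the atrial covariate, where the log2 change was 0.31 for Aldh1l2 (adjusted p = 0.422), 0.57 for Cth (adjusted p = 0.458) and -0.38 for Ddit4 (adjusted p = 0.735), all in edgeR's test.

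Atf4 itself was at 57.6, 56.9, 64.7, 54.6 and 57.7 CPM in the training hearts, and sedentary hearts were at 62.2, 61.5, 65.0, 70.5 and 67.3 CPM. All training hearts but heart 3 were below the sedentary range, and the log2 change was -0.16 (SE 0.053, adjusted p = 0.108 in edgeR's test). Asns, the asparagine synthetase and a textbook ATF4 target, was at 2.97 ± 0.63 and 2.66 ± 0.49 CPM (SD, n = 5 each), a log2 change of 0.16 (SE 0.16, adjusted p = 0.647 in edgeR's test), which was -0.041 with the atrial covariate. Ddit3, which overlaps the cytosolic methionine enzyme gene Mars1 on the opposite strand, had a log2 change of 0.25 (adjusted p = 0.270 in edgeR's test), and Mars1 had -0.044. Eif2ak1 to Eif2ak4, Gcn1, Impact, Eif2s1 and Eif2b1 to Eif2b5 were taken as 12 upstream genes of the integrated stress response. None of these 12 was called, against 7.01% of all genes.

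The binding motif of the ATF4 response, the C/EBP-ATF response element, has the core TGATGNAA, read TTNCATCA on the other strand. The core was searched on both strands in RefSeq promoters of GRCm38.p6, from 250 bases before to 50 bases after the start. A promoter was found for 27 of the 35 synthetases, and those of Cars1, Hars1, Hars2, Lars1, Nars1, Rars1, Vars1 and Wars1 were not used. The core was present in 5 of 27 genes (18.5%), against 4.51% of 27025 genes of the table. The 5 were Aars1, Iars1, Tars1 and Yars1, which are 4 of 11 cytosolic genes with a promoter, and Gars1. It was in no promoter of 14 mitochondrial genes, which says only that these letters are not in these windows. The windows of 30 bases below show where the core lies in 4 of them, in the direction of the gene with the core in capitals. Positions are those of an exact match in GRCm39, and each window is inside the gene as GENCODE bounds it.
Gars1, chr6:55014945-55014974, plus strand, core from base -30: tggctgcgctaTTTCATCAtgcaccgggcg
Tars1, chr15:11399741-11399770, minus strand, core from base -15: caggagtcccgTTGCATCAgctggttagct
Iars1, chr13:49835602-49835631, plus strand, core from base 8: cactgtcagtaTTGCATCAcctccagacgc
Yars1, chr4:129083688-129083717, plus strand, core from base 4: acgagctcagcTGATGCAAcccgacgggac

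Bases are counted from the RefSeq start, with 1 as the first transcribed base. The core reads TTGCATCA in Tars1 and Iars1, TTTCATCA in Gars1, and is in the opposite orientation in Yars1. None of the 5 genes with the core was called, against 7.01% of all genes. Their log2 changes were -0.079 for Aars1, -0.058 for Gars1, -0.038 for Iars1, -0.019 for Tars1 and -0.049 for Yars1, with a median of -0.049, against a median of -0.047 for the 22 synthetases with a promoter and no core. A match is a description of the sequence and does not show that the site is bound in the heart.

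Wars1, the cytosolic tryptophan enzyme, is known to be induced by interferon gamma in many cells. It was at 43.1 ± 3.7 CPM in trained hearts, against 43.5 ± 2.1 CPM in sedentary ones (SD, n = 5 each), a log2 change of -0.015 (adjusted p = 0.918 in edgeR's test), and its highest value was in training heart 2. Of 18 tested genes of the interferon gamma response, 1 was called (5.56%, against 7.01% of all genes), Ifi47, an interferon-induced GTPase, which was higher by 0.54 on the log2 scale (adjusted p = 0.0565 in edgeR's test), and by 0.78 with the atrial covariate (adjusted p = 0.120 in edgeR's test). The median of that list was 0.17, and 15 of its 18 genes were above 0.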

How the data were processed

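Whole-heart RNA of 10 mice was made into directional poly-A libraries, 1 per heart, and sequenced in 1 pool. The authors deposited unnormalized read counts for every gene from STAR 2.7.10a (unique alignments to GRCm39), and expected counts and TPM per gene from RSEM 1.3.3, whose strand setting is not given in the sources used here and was read from its counts. Reverse-strand counts were used for tests, because between 94.9% and 95.6% of stranded reads were there. Here, edgeR 4.0.16 (R 4.3.3) with filterByExpr, TMM factors and the quasi-likelihood test was run over all genes. Calls were made at an FDR below 0.1. DESeq2 1.42.0, other scalings, filters and kinds of count, the mouse number as a block, and fits without each heart were alternatives. The deposited TPM gave levels per length. Transcripts were compared with blastn 2.17.0, and the steps were tested on simulated data. Members and lists were chosen with earlier results of these data known. All 35 members were reported; values in every heart were given for called members and for the extremes of each class, and the members with an unadjusted p below 0.05 were added after their values were seen. From the other lists, called genes were named, at most 5 a list, with Atf4 and Asns. The labels give the mice separate numbers, and any 2 libraries of a group differed well beyond counting error (chi-square over its degrees of freedom, 6.02 to 27.8). The promoter window of 1 gene is not reported here.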

Additional observations from a re-analysis of the deposited data

Results flagged for a closer look

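Among 74 sets of 5 hearts (35 genes and 2 class sums in each group), 9 had a heart that stood apart by Dixon's criterion, where chance flags about 1 in 20. In training heart 1, Lars2 was at 207 CPM against at most 73.7 CPM in the other training hearts, the mitochondrial sum was at 639 CPM against at most 503 CPM, and Hars2 was at 27.6 CPM against at most 24.8 CPM. The sum follows from Lars2, since without that gene it was at 432 CPM in training heart 1 and between 414 and 434 CPM in the others. In training heart 2, Aars1 was at 82.6 CPM against at most 72.7 CPM, Tars1 at 33.9 CPM against at most 32.3 CPM, and Mars2 at 18.9 CPM against at most 17.3 CPM. Sedentary heart 2 was high for Rars1, at 40.5 CPM against at most 38.7 CPM, and for Iars2, at 137 CPM against at most 130 CPM. Sedentary heart 5 was low for Hars1, at 30.2 CPM against at least 31.6 CPM.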

How the results depend on the processing

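With 5 hearts a group and 1 gene near the threshold, the count of synthetases called was unsteady. It was 1 (Sars2) as reported and 0 with library totals alone, with no filter on low counts, with the mouse number as replicate block, with the atrial marker mean as covariate and at an FDR below 0.05. It was 3 with the gene length trend removed, and between 0 and 2 when 1 heart was left out. Over all genes, the count was 1084 as reported, 1137 with the replicate block, 62 with the atrial covariate, 505 at an FDR below 0.05, and between 512 and 1490 with 1 heart left out, lowest without training heart 4 or sedentary heart 3, at 540, 611 and 671 without training heart 3, sedentary heart 2 and sedentary heart 4, and highest without sedentary heart 1. The mouse numbers did not pair the hearts, since the correlations of same-numbered hearts lay between -0.097 and 0.16 and only number 5 correlated best with its own, so the block stands here alone. The cytosolic median log2 fold change was 0.020 with library totals alone and 0.0038 with the atrial covariate, and between -0.051 and -0.019 with 1 heart left out. The mitochondrial median was 0.0022 and -0.0040 under these settings, and between -0.057 and -0.027 with 1 heart left out. The cytosolic minus the mitochondrial median was 0.016 as reported and stayed within the spread between hearts, between -0.0032 and 0.028. Of the 35 synthetases, 22 kept the sign of their log2 change with library totals alone, 26 with the atrial covariate, between 30 and 34 with 1 heart left out (fewest without training heart 5), and at least 33 in each other setting. Among the genes followed one by one, it changed for Kars1 without training heart 4 (-0.0068) and without sedentary heart 1 (-0.013, in a range up to 0.026 with 1 heart left out), for Lars2 without training heart 1 (-0.020, in a range up to 0.54), and for Asns with the atrial covariate (-0.041). The cause of these changes was not tested. Leaving ribosomal RNA genes, Gm15564 and Mir6236 out of the fit, an alternative chosen after seeing the data, gave 1 synthetase and 1086 genes called.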
